A study of Mus musculus with 12 samples.

Results

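The genes described here belong to microglia and to the complement system: C1qa, C1qb and C1qc, which encode the 3 chains of C1q, together with C3, Tyrobp, Cx3cr1, Csf1r, Aif1, Itgam and Spi1. Their CpG cytosines were taken from the gene body or the 2 kb upstream of each gene (GENCODE vM21 basic annotation, mm10 genome), wherever at least 3 of the 12 libraries held 10 or more reads. Each strand of a CpG was counted as a site of its own. This gave 819 sites, of 2603911 sites covered to the same extent in the whole series. The sites lay in 9 of the 10 genes, and Tyrobp had no site in any library.

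The assay was RRBS (reduced representation bisulfite sequencing), in which DNA is cut at CCGG, size-selected and treated so that unmethylated cytosines are read as T. Mixed hippocampus and cortex came from mice of 11 months, namely 4 wild-type (Wt) animals (3 labelled female, 1 labelled male) and 8 Tg2576 (Tg) animals (4 female, 4 male). Tg2576 mice express human APP with the Swedish double mutation from a prion promoter, and nothing in the labels ties the transgene to microglia. The deposited values were read counts, and the methylation level of a site is the percent of its reads that kept a C.

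Microglia are the resident macrophages of the brain, and they make most of its C1q. C1q starts the classical complement cascade, which runs through C3, and the microglial receptor that the Itgam product forms binds fragments of C3 during the removal of synapses and debris. The transcription factor PU.1, encoded by Spi1, drives microglial identity together with signalling through the CSF1 receptor. Microglia are a minority of brain cells, so a level in mixed tissue is mostly that of other cells. A partial level cannot tell apart a site methylated in a share of the cells from one methylated on a share of the DNA copies of every cell.

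Coverage summed over the listed CpG cytosines lay between 33619981 and 131446104 per library. A read counts there once for each CpG it covers, so this sum is not a number of reads. Of the 819 sites, between 384 (Tg female 4) and 791 (Tg female 1) were listed in a library, and outside Cx3cr1 between 58 and 184 of 191. The mean level of autosomal sites covered in all 12 libraries was highest in Wt female 1 (6.06%) and Tg female 1 (5.92%). It was lowest in the library labelled Wt male (5.15%), with the others between 5.30% and 5.63%. The library labelled Wt male went against its label: its mean level on chromosome X was 19.9%, next to 20.7% to 23.0% in the libraries labelled female and 5.50% to 5.67% in Tg males, and its rows on chromosome Y were within the range of the females. The labelled group was retained for it, and the genotype results are given below with it and, as counts or differences, without it. Without it all Wt libraries are labelled female, so fits with sex as covariate then compare genotypes in females alone. The differences given for those fits still include the Tg males. Nothing in the labels names the origin of each animal. The p-values below measure the spread between these 12 libraries, except those of the binomial model, which measure the error of read counting alone.

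The stretches that carry the results are printed here from the mm10 genome on the strand of the gene, 5′ to 3′, with each CpG that was measured in at least 3 libraries in capitals. The first pair comes from C1qa and shows neighbouring parts of 1 gene with different levels: a stretch of exon 3 at chr4:136896421-136896716 (minus strand) and a stretch that runs from exon 2 into the next intron at chr4:136897550-136897706 (minus strand).
C1qa exon 3: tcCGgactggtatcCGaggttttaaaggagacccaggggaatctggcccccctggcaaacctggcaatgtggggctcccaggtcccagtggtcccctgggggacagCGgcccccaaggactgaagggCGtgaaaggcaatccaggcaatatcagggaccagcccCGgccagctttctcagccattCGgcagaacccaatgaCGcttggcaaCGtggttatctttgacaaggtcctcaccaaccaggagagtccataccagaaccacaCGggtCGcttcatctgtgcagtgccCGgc
C1qa exon 2 and intron: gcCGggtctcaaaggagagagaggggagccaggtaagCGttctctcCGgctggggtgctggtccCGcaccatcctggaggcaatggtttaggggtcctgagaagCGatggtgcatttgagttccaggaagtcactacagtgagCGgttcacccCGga
The next lines show the only stretch of C1qb that was measured, upstream of the gene at chr4:136886506-136886626 (minus strand), and the coding part of exon 3 of C1qc at chr4:136890199-136890469 (minus strand), the homologue of the C1qa exon above.
C1qb upstream: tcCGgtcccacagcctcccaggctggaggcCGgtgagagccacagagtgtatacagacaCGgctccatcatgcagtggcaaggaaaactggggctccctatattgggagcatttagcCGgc
C1qc exon 3: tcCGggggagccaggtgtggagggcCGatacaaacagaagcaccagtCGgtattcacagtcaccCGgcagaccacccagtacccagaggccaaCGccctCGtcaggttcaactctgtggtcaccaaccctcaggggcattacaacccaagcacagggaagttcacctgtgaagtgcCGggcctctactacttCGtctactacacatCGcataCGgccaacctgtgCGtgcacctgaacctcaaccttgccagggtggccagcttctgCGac
The last lines show the coding sequence of Cx3cr1 at chr9:120051908-120052105 (minus strand), which is the measured part of that gene nearest to its start, and the first intron of Spi1 at chr2:91097083-91097198 (plus strand).
Cx3cr1 exon 2: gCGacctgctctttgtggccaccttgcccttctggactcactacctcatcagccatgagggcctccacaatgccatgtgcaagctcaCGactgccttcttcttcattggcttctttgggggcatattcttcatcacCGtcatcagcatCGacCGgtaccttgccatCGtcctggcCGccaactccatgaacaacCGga
Spi1 intron 1: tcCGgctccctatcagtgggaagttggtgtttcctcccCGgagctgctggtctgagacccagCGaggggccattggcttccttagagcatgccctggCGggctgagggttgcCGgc

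Most of these genes were measured away from their starts of transcription. Distances are given from the nearest start of a basic transcript, negative upstream. Only C1qb, Aif1 and Spi1 had sites within 1 kb of a start, 3 of 10 members (30%), compared with 71.6% of 21755 protein-coding genes. The median level of the sites in that window was 43.3% over the 3 members and 1.20% over the protein-coding genes, 80.7% of which were under 10%. None of the 3 members was under 10% there. Among 30 other microglial genes chosen for comparison, 53.3% had sites near a start, with a median of 5.57%, and among 35 other complement genes 48.6% had them, with a median of 39.9%. Marker genes of oligodendrocytes, astrocytes and neurons had sites near a start in 100%, 90% and 90% of 10 genes each, with medians of 8.11%, 2.05% and 1.31%.

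The cutting sites of the assay were counted in the mm10 sequence of each interval. Tyrobp, which encodes the adaptor DAP12 of microglial receptors, holds 52 CpGs and 9 CCGG sites in its interval, but only 1 fragment between CCGG sites of 40 to 300 bp, with 3 CpGs, and none of them was listed. C1qb holds 96 CpGs and 9 CCGG sites and also has 1 such fragment with 3 CpGs. C1qa, with 86 CpGs and 10 CCGG sites, has 5 fragments of that size with 19 CpGs, and 19 of its CpGs were listed in at least 3 libraries. C1qc, with 78 CpGs and 9 CCGG sites, has 6 fragments, and 20 of its CpGs were listed. The RefSeq promoter table (GRCm38.p6, 250 bases before to 50 after a start) held 6 members, and only that of Itgam contains CCGG (16.7%, compared with 53.1% of all 32619 promoters in the table).

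**Figure D1:**
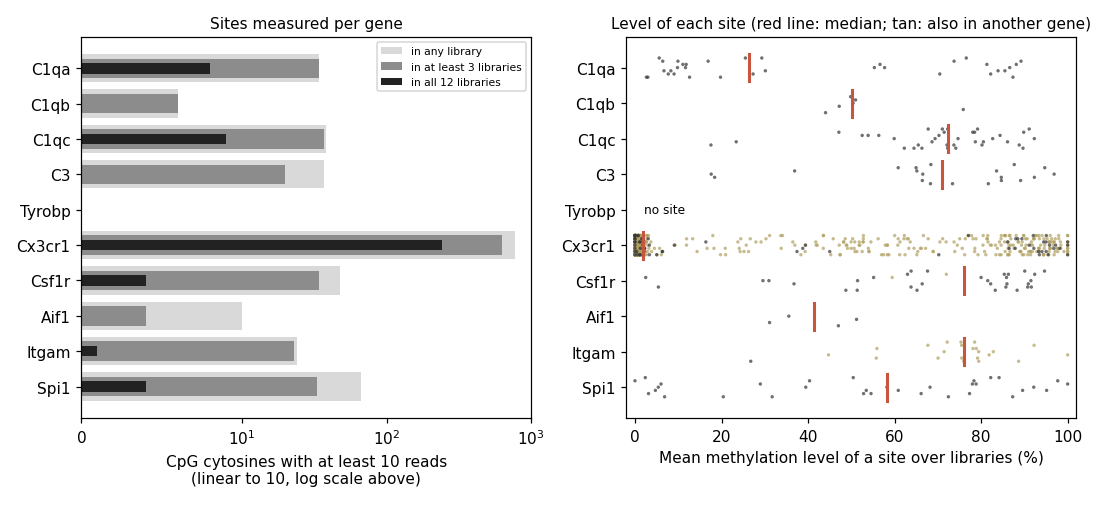
The left panel counts the CpG cytosines of each gene with at least 10 reads in any library, in at least 3 and in all 12 (axis linear to 10 and logarithmic above). The right panel gives the mean level of each site over libraries in percent, with the median of each gene as a red line: Cx3cr1 holds 628 of the 819 sites, mostly near 0% and mostly also inside another gene (tan points), and Tyrobp holds none.

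The sites of the C1q genes lay close together on chromosome 4, where the 3 genes adjoin, and their levels differed between and within the genes. C1qa (ENSMUSG00000036887.5) had 34 sites with a median level of 26.4%, C1qb (ENSMUSG00000036905.8) 6 sites with 50.1%, and C1qc (ENSMUSG00000036896.5) 37 sites with 72.3%. C1q is the recognition molecule of the classical pathway, and each of its subunits contains 1 copy of each chain. In C1qa, the 22 sites of exon 3 had a mean of 17.1%, and a single CpG within them stood apart: its strands had 55.3% and 56.6%, while the lowest site had 2.65%. The 12 sites of exon 2 and the following intron had a mean of 80.2%. The exon 3 of C1qc had a mean of 70.05% over 33 sites, so the homologous coding parts of C1qa and C1qc differed by more than the range of library means within either gene: 6.12% to 23.6% in C1qa exon 3 and 64.5% to 81.7% in C1qc exon 3. The upstream stretch of C1qb had a mean of 53.1%, with a median of 14 reads per site, and its library means ran from 16.7% to 100% over 1 to 5 listed sites each. The C1q sites nearest to a start were at 1099 bp in C1qa with 73.8% ± 20.2 (SD, n = 7 libraries), at -321 bp in C1qb with 44.05% ± 25.7 (SD, n = 4 libraries) and at 1494 bp in C1qc with 73.7% ± 31.2 (SD, n = 6 libraries).

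**Figure D2:**
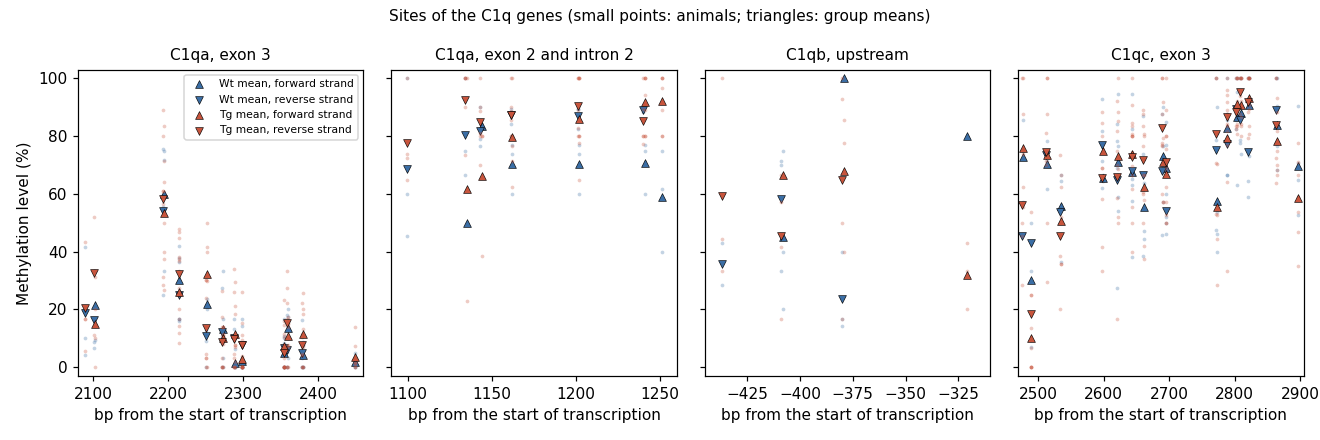
Methylation level in percent of each site of C1qa exon 3, C1qa exon 2 with the next intron, C1qb upstream and C1qc exon 3, plotted by distance from the start of transcription in bp; small points are animals and triangles the means of Wt (blue) and Tg (red) animals, pointing up for the forward and down for the reverse strand. C1qa exon 3 lies low with 1 CpG above 50%, C1qa exon 2 lies high, and the triangles of Wt and Tg mostly lie close to each other.

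C3 and Itgam represent the part of the cascade after C1q and its receptor. C3 (ENSMUSG00000024164.15) had 20 sites in at least 3 libraries and none in all 12. Its highest stretch, in exon 6, had a mean of 89.99%, and its lowest, at -1861 to -1793 bp, had 48.9%. A stretch around exon 27 had sites from 17.6% to 68.4%. The site nearest to the start of C3, at -1793 bp, had 36.9% ± 14.3 (SD, n = 8 libraries). Itgam (ENSMUSG00000030786.18), the CD11b chain of complement receptor 3, had 23 sites with a median of 75.96%, of which 22 also lay in the overlapping gene model Gm49368. The site nearest to its start, at -1997 bp, had 26.8% ± 9.60 (SD, n = 5 libraries).

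The receptors and the transcription factor showed low stretches inside otherwise methylated genes. Csf1r (ENSMUSG00000024621.16), the receptor for CSF1 and IL-34 on which microglial survival depends, had 34 sites with a median of 75.98%. Within it, 4 sites in an intron, 2812 to 2847 bp from the start, were covered in all libraries and had a mean of 18.6%, with the outer sites at 5.41% and 2.49% and the CpG between them at 36.8% and 29.6% on its strands. The stretches around exon 3 and exon 4 had means of 86.2% and 88.3%. The site nearest to its start, at -1200 bp, had 48.7% ± 23.9 (SD, n = 5 libraries). Spi1 (ENSMUSG00000002111.8) had 33 sites with a median of 58.2%. The stretch in its first intron, 989 to 1100 bp from the start, had a mean of 69.0%, the single site in its first exon had 20.4% ± 11.8 (SD, n = 7 libraries), and 7 sites in the untranslated part of its exon 5 had a mean of 4.07%. Aif1 (ENSMUSG00000024397.14), which encodes the microglial protein IBA1, had 4 sites in an intron with a median of 41.3%, each in 5 libraries. The start they lay near belongs to shorter transcripts inside the gene, and the nearest site, at -119 bp, had 47.02% ± 18.8 (SD, n = 5 libraries).

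Cx3cr1 (ENSMUSG00000052336.7), the fractalkine receptor through which microglia respond to neurons, held 628 of the sites, with an annotated interval that runs from 119901616 to 120069879 on chromosome 9. Of these sites, 563 lay also in another gene or its 2 kb upstream, among them 267 in the interval of Csrnp1, 204 in that of 1700019L13Rik and 99 in that of Ttc21a. A CpG-rich stretch of 197 such sites had a mean of 0.713%. Only 65 sites were in Cx3cr1 alone. The 18 sites in the coding sequence of exon 2, from 16180 to 16918 bp from the start, were highly methylated, with means of 92.3% and 94.1% in their 2 stretches. The site at 16180 bp, the nearest to a start, had 100% in each of the 3 libraries that listed it.

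**Figure D3:**
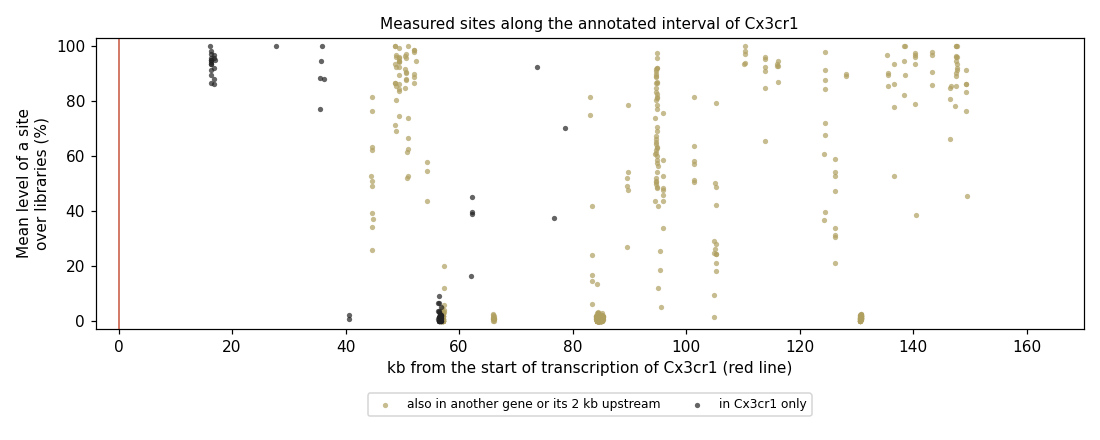
Mean level in percent of each measured site along the annotated interval of Cx3cr1, by distance in kb from its start of transcription (red line); tan points lie also in another gene or its 2 kb upstream, black points in Cx3cr1 alone. The black points nearest to the start are the coding exon above 80%, and the dense groups near 0% farther away lie mostly in other genes.

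The study asked whether methylation differs between Tg and Wt brains, and the levels were first compared per gene. Where every one of the 12 libraries had 10 or more reads at a site, 6 members had a value: C1qa (8 sites), C1qc (9), Cx3cr1 (243), Csf1r (4), Itgam (1) and Spi1 (4). None of the 6 was called by the gene-level overdispersion model, which sums the reads of a gene per animal and compares genotypes against the spread between animals with sex as covariate, at an adjusted p under 0.1; the background was 3 of 21038 genes (0.0143%). At an unadjusted p under 0.05 there were also 0 members, against 5.93% of all genes. Without Wt female 1 there were 2, C1qa with a difference of 4.76 points (unadjusted p = 0.00991, adjusted p = 0.586, overdispersion model) and Cx3cr1 with 1.05 points (unadjusted p = 0.00357, adjusted p = 0.573). That fit called 0 of 21038 genes at the adjusted p, and its share of all genes at an unadjusted p under 0.05 was not counted. Wt female 1 had the highest mean autosomal level of all libraries (6.06%), and its part in this count was not tested. With all animals, limma on logit levels called 0 members and 0 genes. The exact permutation test of the mean levels, whose values follow, passed p under 0.05 in 0 members and in 4.1% of all genes.

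The mean level of the 8 sites of C1qa was 11.4%, 5.94% and 1.06% in Wt females 1 to 3 and 4.63% in the library labelled Wt male. In Tg animals it ran from 3.85% through a median of 8.21% to 11.0%. The Tg values lay within the Wt range, at 8.16% ± 2.21 (SD, n = 8) against a Wt mean of 5.75% ± 4.28 (SD, n = 4). By read-weighted levels the difference was 2.54 points (adjusted p = 0.9, overdispersion model), and the exact permutation test of the mean levels gave p = 0.22.

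C1qc had 83.1%, 85.8% and 73.4% in Wt females 1 to 3 and 73.8% in the library labelled Wt male, against 63.8%, 77.5% and 89.0% as the lowest, median and highest Tg value. Wt animals averaged 79.04% ± 6.38 (SD, n = 4), and Tg animals averaged 77.3% ± 7.18 (SD, n = 8). The groups overlapped, and the difference was below the spread of either (exact permutation p = 0.689).

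Csf1r had 30.7%, 11.99% and 20.8% in Wt females 1 to 3 and 2.56%, the lowest of all, in the library labelled Wt male. Its Tg values ran from 12.7% through a median of 19.2% to 33.7%, inside the Wt range at the low end and above it in Tg female 1 alone. The difference of 3.08 points in mean level had an exact permutation p of 0.574, and without the library labelled Wt male the read-weighted difference changed sign, from 2.60 to -0.94 points.

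Spi1 had 5.65%, 11.6% and 2.92% in Wt females 1 to 3 and 4% in the library labelled Wt male, and 0% to 9.50% in Tg animals with a median of 4.96% (exact permutation p = 0.412). Cx3cr1 had 4.27% to 7.43% in Wt and 4.64% to 6.96% in Tg animals, a difference of 0.06 points in mean level (exact permutation p = 0.943) and of 0.58 points by reads (unadjusted p = 0.105, overdispersion model). The single Itgam site covered throughout ranged from 33.3% to 80% in Wt and from 12.5% to 78.9% in Tg animals (exact permutation p = 0.768). In each of the 6 genes the ranges of Wt and Tg overlapped. Without the library labelled Wt male the read-weighted differences were 2.26 points in C1qa, -2.20 in C1qc, 0.36 in Cx3cr1 and -1.98 in Spi1, all of the same sign as with it, and 1.98 points in Itgam, where it was -1.38 with that library.

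**Figure D4:**
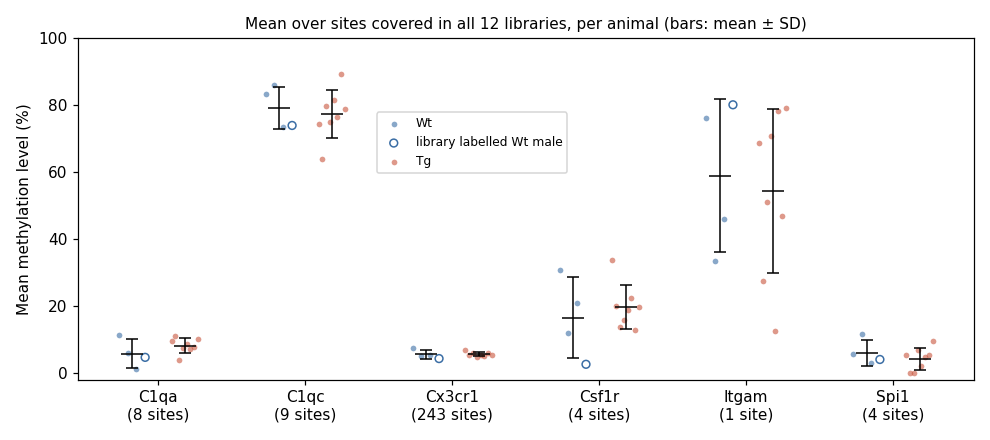
Mean methylation level in percent over the sites covered in all 12 libraries, for the 6 members that have such sites; points are animals (Wt blue, Tg red, the library labelled Wt male as an open circle) and black bars the mean ± SD. Wt and Tg points overlap in every gene, and Itgam, which rests on 1 site, spreads the most.

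Single sites were then compared by 2 models. The binomial model treats the reads of an animal as independent draws, with sex as covariate and the thresholds of the study's methods, which do not say whether overdispersion was corrected. Over the whole series it called 16884 sites, many more than the study lists at these thresholds, so its calls are not those of the study. None of the members is among the genes that the study links to its differentially methylated sites. The overdispersion model lets animals of 1 genotype differ by more than counting error. A site was called at an adjusted p under 0.1 and a difference of at least 10 percentage points in read-weighted level. Of 269 member sites covered in all 12 libraries, the binomial model called 8 (2.97%), against 1.72% of all 980547 sites. In Tg animals 6 of the 8 were higher (background 0.928% of sites) and 2 were lower (0.794%). The overdispersion model called 0 member sites and 0 of all sites (0%), with 30 member sites (11.2%) at an unadjusted p under 0.05 against 10.9% of all sites. Of the 8 sites, 6 lay in Cx3cr1, each also inside another gene, 1 in C1qa and 1 in Csf1r. Without the library labelled Wt male the binomial model called 2 of the 269 sites (0.743%), both in Cx3cr1 and both among the 8, against 1.35% of all sites. The genotype test of that fit rested on females alone, while the threshold of 10 points used differences that include Tg males. In a fit of females alone 8 member sites were called (2.97%), against 2.13% of all sites. The members' share was above the background with all 12 libraries and in females alone, and below it without that library, on 8, 8 and 2 calls. These differences from the background were not tested.

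The called site of C1qa, at 136896514 in exon 3 on chromosome 4, had 6.38% in Wt female 1 and 0% in Wt females 2 and 3 and in the library labelled Wt male. In Tg females 1 to 4 it had 29.4%, 18.5%, 7.69% and 0%, and in Tg males 1 to 4 it had 7.69%, 1.79%, 6.90% and 21.2%. The groups overlapped through 2 Tg animals, at 0% and 1.79%. Its depth was 12 to 59 reads. The read-weighted difference was 10.4 points, with an adjusted p of 0.000236 in the binomial model and 0.451 in the overdispersion model. On the opposite strand of the same CpG, 1 base away, Wt animals averaged 10.1% ± 7.20 (SD, n = 4) and Tg animals averaged 9.69% ± 14.2 (SD, n = 7). By reads, as in the call, the opposite strand had 6.90% in Wt and 12.6% in Tg, a difference of 5.72 points in the same direction that was not called. The call was lost without Wt female 3, the library labelled Wt male, Tg female 1, Tg female 2 or Tg male 4, with differences from 6.83 to 12.8 points over the fits that left out 1 animal.

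The called site of Csf1r lay 2833 bp from its start, in the low intronic stretch. It had 45%, 31.6% and 19.2% in Wt females 1 to 3 and 10.3% in the library labelled Wt male, against 10%, 46.8% and 64.7% as the lowest, median and highest Tg value. The groups overlapped over most of the Wt range. The difference was 14.05 points, with an adjusted p of 0.00156 in the binomial and 0.451 in the overdispersion model, and it was 9.31 points and no longer called without the library labelled Wt male. On its opposite strand Wt animals averaged 26.7% ± 24.8 (SD, n = 4) and Tg animals averaged 31.04% ± 15.6 (SD, n = 8).

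In Cx3cr1, the site at 119918960 had 100%, 92.9%, 95.2% and 91.7% in the Wt animals, the last in the library labelled Wt male, and 57.1%, 73.2% and 100% as the lowest, median and highest Tg value. Wt values lay at the top of the Tg range. The read-weighted difference was -21.7 points, with an adjusted p of 5.27e-05 in the binomial and 0.448 in the overdispersion model. On the opposite strand Wt animals averaged 85.6% ± 11 (SD, n = 4) and Tg animals averaged 86.6% ± 11.7 (SD, n = 7). At 120018850, Wt animals had 93.3%, 55.6%, 88.9% and 75%, and Tg animals 77.8% to 100% with a median of 100%, a difference of 16.4 points with an adjusted p of 0.000677 in the binomial and 0.451 in the overdispersion model. These were the 2 sites called in each of the 12 fits that left out 1 animal. The other Cx3cr1 calls, at 119942069, 119966880, 119973360 and 119973379, had differences of 11.2, -20.1, 18.9 and 12.5 points, and each was lost without the library labelled Wt male, with differences then of 8.01, -23.3, 13.4 and 6.16 points and an adjusted p above the threshold. They were also lost without Wt females 2 or 3 or Tg female 3 or male 3 for the first, without Wt female 1, Tg females 2 or 3 or Tg males 2 or 4 for the next, without Wt female 2 or Tg female 1 for 119973360, and without Wt females 2 or 3 or Tg female 1 for 119973379. The adjusted p without the library labelled Wt male rested on females alone, in which the differences were 13.86, -9.17, 6.35 and 16.55 points.

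**Figure D5:**
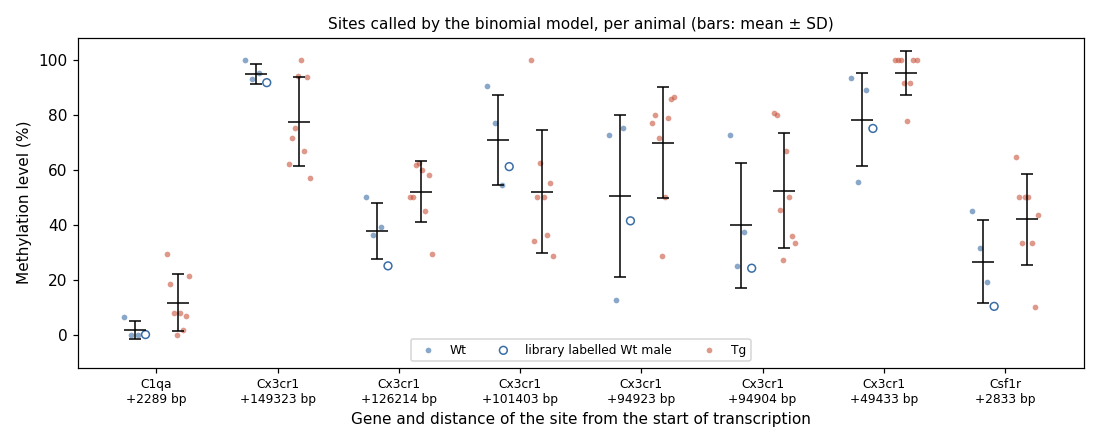
Methylation level in percent per animal at the 8 member sites called by the binomial model, named by gene and distance from the start of transcription; points are animals (Wt blue, Tg red, the library labelled Wt male as an open circle) and black bars the mean ± SD. At each site at least 1 Tg animal lies within the range of the Wt animals.

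Each of the 8 called sites has an opposite strand that was also measured, with 2 of the 8 differing in the same direction by the mean of animals and 3 of the 8 by reads. Of these partners, 3 were covered in too few libraries to be tested even where at least 3 Wt and 6 Tg libraries sufficed, the wider set described below. Of the others, 0 were called in that set. For comparison, over all 299 member CpGs measured on both strands, the mean levels of the strands differed by a median of 1.31 points, and 255 lay within 10 points. Of these, 235 were in Cx3cr1 (median 0.994 points), where most levels are near 0%, and the medians were 2.84 points in C1qa, 3.71 in Csf1r, 5.84 in C1qc and 6.21 in Spi1. When the reads of both strands were summed, 3 of 207 member CpGs were called (1.45%), against 2.11% of all CpGs. The C1qa, Csf1r and Cx3cr1 120018850 sites then missed only the threshold of 10 points, with differences of 8.53, 8.95 and 8.77 points and adjusted p of 0.000169, 0.0039 and 0.0106 in the binomial model. At 1 of the 269 member sites (0.372%) the Wt and Tg ranges did not overlap, compared with 0.0709% of all sites. This was the Cx3cr1 site at 120002185, with 1.14% to 4.76% in Wt and 0% in all Tg animals, a difference of -2.47 points that is below the size needed for a call. The Cx3cr1 site with the smallest p of the overdispersion model (unadjusted 0.00665), at 120002219 close by, had 2.07% ± 2.41 (SD) in Wt and again 0% in all Tg animals. Both sites lay also in another gene or its 2 kb upstream, in a stretch 65998 to 66098 bp from the Cx3cr1 start. That stretch had a mean of 0.982%, so both sites were near 0% in all animals.

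Sites missing from some libraries were compared where at least 3 Wt and 6 Tg libraries covered them. The binomial model called 23 of these 477 member sites (4.82%), against 4.11% of all 1640806 sites. In Tg animals 15 were higher (background 2.23%) and 8 lower (1.88%). The overdispersion model called 0 member sites and 0 of all sites, with 9.01% of member sites and 9.50% of all sites at an unadjusted p under 0.05. Outside Cx3cr1 the calls were 9 of 85 sites (10.6%), against 4.11% of all sites, a background not matched for level. Of these 9, 4 lay in C1qa, 3 in Csf1r and 1 each in C3 and Itgam. The largest difference in C1qa was at 136897552, the edge of the methylated stretch in the intron after exon 2. It had 61.5%, 75% and 40% in Wt female 1, Wt female 3 and the library labelled Wt male, and 80% to 100% in 7 Tg animals. The groups did not overlap there, as at 5 of the member sites (1.05%) and 0.219% of all sites of this set. The site rested on 10 to 30 reads per library, and its adjusted p in the overdispersion model was 0.507. The neighbouring CpG at 136897562, also among the 4 calls, had a Wt mean of 70.6% ± 9.26 (SD, n = 3) and a Tg mean of 91.9% ± 9.07 (SD, n = 7). Its read counts per library were nearly those of 136897552 on the same strand, so the 2 calls are not independent. On its opposite strand the Wt mean was 89.1% ± 0.715 (SD, n = 3) and the Tg mean 85.4% ± 8.44 (SD, n = 6), the other direction. Without the library labelled Wt male, 19 of the 477 sites were called (3.98%, against 3.44% of all sites), with 4 in C1qa, 2 in C3, 1 in Itgam and 0 in Csf1r. The difference at 136897552 was then 25.1 points, against 29.8 with that library, and still called by the binomial model.

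C1qc and Spi1 had no site called in either set, and C1qb and Aif1 had no site that could be tested in either. The smallest unadjusted p of the overdispersion model among sites covered throughout was 0.218 in C1qc, at 136890467, with 77.1% ± 13.2 (SD) in Wt and 65.5% ± 19.9 (SD) in Tg, and 0.115 in Spi1, at 91115459, with 4.81% ± 7.62 (SD) in Wt and 2.29% ± 3.67 (SD) in Tg. C3 had its call at 57213939, where Wt libraries had 81.1% ± 6.67 (SD) and Tg libraries 61.1% ± 25.3 (SD), with an unadjusted p of 0.188 in the overdispersion model. The spread between animals was larger than counting error at each of the 26 member sites outside Cx3cr1, with a median dispersion of 3.10, where 1 is the spread that read counting alone gives. All sites with a pooled level of 10% to 90% had a median of 3.60.

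The lists chosen for comparison gave the following counts of binomial calls, and no call by the overdispersion model. Of the complement cascade beyond the members, 14 of 35 genes had sites in all libraries, and 5 of 455 sites were called (1.10%), 3 higher and 2 lower in Tg. They included Hc, which encodes C5, with 11.8 points, and C2, a protease of the classical pathway, with -15.0 points. Other microglial genes had 15 of 633 sites called (2.37%), 13 higher and 2 lower. Among the genes of these with the smallest p in the overdispersion model were Sall1, a transcription factor of microglial identity, with 12.7 points, P2ry6, a receptor for UDP that triggers phagocytosis, with 18.1 points, Plcg2, a phospholipase of immune receptor signalling, with 22.8 points, and Inpp5d, the phosphatase SHIP1, with -15.7 points. At the Sall1 site the groups did not overlap, with a Wt mean of 1.88% ± 2.19 (SD, n = 4) and a Tg mean of 17.96% ± 14.02 (SD, n = 8).

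Among partners of the members, 10 of 903 sites were called (1.11%), 6 higher and 4 lower. Runx1, a factor that acts with PU.1, had a site with a Wt mean of 21.96% ± 12.7 (SD, n = 4) and a Tg mean of 53.6% ± 10.3 (SD, n = 8), and Csf1, the ligand of the CSF1 receptor, had one with 10.5% ± 8.34 (SD, n = 4) and 27.9% ± 11.5 (SD, n = 8). The adjusted p in the overdispersion model was 0.425 for the Runx1 site and 0.451 for the Csf1 site. Genes of disease-associated microglia had 2 of 190 sites called (1.05%), both in Cd9, a tetraspanin, with 13.45 points at the one with the smaller p. For scale, markers of other brain cells had 19 of 447 sites called in oligodendrocytes (4.25%), 1 of 396 in astrocytes (0.253%) and 16 of 792 in neurons (2.02%), values on both sides of the background of 1.72%. Without the library labelled Wt male 1.35% of all sites were called. The calls were then 5 in the complement cascade (1.10%, 1 higher, 4 lower), 11 in microglial genes (1.74%), 9 in partners (0.997%) and 1 in genes of disease-associated microglia (0.526%). Markers of other brain cells had 10 in oligodendrocytes (2.24%), 2 in astrocytes (0.505%) and 16 in neurons (2.02%). The median difference per gene was -0.40 points over the 6 members and 0.06 points over all genes.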

How the data were processed

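Per the labels and the study's methods, the authors aligned bisulfite reads to mm10 with Bismark and deposited methylated and unmethylated read counts per CpG cytosine, strands apart, at sites with at least 10 reads; versions are not given in the sources used here. The count tables were joined and every site was assigned to genes of GENCODE vM21 basic, extended by 2 kb upstream. Sites covered in all 12 libraries were fitted with genotype and sex by a binomial model (likelihood-ratio chi-square test) and by a model with a dispersion of at least 1 (F test), with Benjamini-Hochberg adjustment over all sites. Read counts summed per gene were fitted likewise, and mean levels were compared by the two-sided exact permutation test over 495 regroupings and by limma 3.58.1 (logit scale, pseudocount 1). numpy 2.4.6, scipy 1.17.1 and R 4.3.3 were used. The fits were tested on simulated data.

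Members and gene lists were chosen with earlier results of these data known. Named sites were every called site, the site with the smallest p of the overdispersion model, the site nearest to a start, and up to 10 genes of the other lists by that p. Some genes that this rule names are not reported here. Alternatives changed the minimum of reads, the threshold of difference, the sites used, strand handling, the sex term and the weighting, and left out each animal. Leaving out sites shared with another gene, and the library labelled Wt male in the wider set, was added after seeing the data. Summed coverage was as given above, and the precision at a site is limited by its reads and by the number of animals.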

Additional observations from a re-analysis of the deposited data

Results flagged for a closer look

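Each group of 4 Wt or 8 Tg animals was searched for an animal far from the rest at the 14 values compared (6 mean gene levels and 8 called sites), by Dixon's criterion. This marked 3 of 28 groups. The criterion marks about 1 in 20 by chance where values are normally distributed, which does not hold for levels at the floor of 0%. In Csf1r, Tg female 1 had a mean level of 33.7% and the next Tg animal 22.3%. Tg female 1 also had the highest mean autosomal level of the Tg libraries (5.92%), and a link was not tested. At the C1qa site at 136896514, Wt female 1 had 6.383% and the other Wt animals 0%, so any value above 0% would have been marked there. At the Cx3cr1 site at 120018850, Tg male 1 had 77.78% and the next Tg animals 91.67%.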

How the results depend on the processing

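The overdispersion model called 0 member sites and 0 member genes under every alternative run. It also called 0 of all sites and at most 3 of all genes in each of them, so these counts show nothing particular to the members. The 8 binomial calls of 269 sites became 0 of 101 at a minimum of 20 reads (0.475% of all sites) and 0 of 269 at a difference of 25 points (0.0775%). With strands summed there were 3 of 207 (1.45%, against 2.11% of all CpGs). In the sites of at least 3 Wt and 6 Tg libraries there were 23 of 477 (4.82%, against 4.11%). Settings chosen after seeing the data gave 2 of 27 without sites shared with another gene (7.41%, against 1.72% of all sites). They gave 19 of 477 in the wider set with the library labelled Wt male left out (3.98%, against 3.44%). The shares over all sites were not matched for level, which had a median of 11.4% at member sites outside Cx3cr1 and 0.858% over all sites. Leaving out 1 animal gave 2 to 11 calls of 269 sites. The fewest came when the Wt animal labelled male was dropped (0.743%, against 1.35% of all sites) and the most when Wt female 1 was (4.09%, against 2.25%). There were 8 calls with no sex term (4 higher, 4 lower, 6 of them among the original 8), 8 in females alone (3 higher, 5 lower, 4 among the original) and 9 with the mean of animals (6 higher, 3 lower). The member shares there were 2.97%, 2.97% and 3.35%, against 1.94%, 2.13% and 1.65% of all sites. With strands summed, the differences at the Cx3cr1 sites 119942069 and 119973379 turned to -0.2139 and -0.5676 points. At 20 reads the Spi1 difference turned to 0.1538 points. Leaving out 1 animal moved the read-weighted gene differences from -4.009 to 0.3573 points in C1qc, -0.9389 to 6.706 in Csf1r, -8.003 to 8.383 in Itgam and -2.605 to 0.3882 in Spi1, all through 0, and from 0.6768 to 4.762 in C1qa and 0.3578 to 1.047 in Cx3cr1. Those through 0 in Itgam included the fit without the library labelled Wt male (1.976). The cause of these changes was not tested. No paired analysis was possible because the labels give no number that ties a Wt animal to a Tg animal. Member sites covered in all 12 libraries had a median of 38 reads outside Cx3cr1 and 48 in Cx3cr1, against 45 over all sites. The SDs printed for single sites are between libraries and include counting error.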
